A study of Apis mellifera with 15 samples.

Results

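Brains of forager honey bees (Apis mellifera) that had taken up thiacloprid at 250 ng/bee were compared with brains of solvent controls. The comparison used 10 of the 15 libraries of the study, 5 at 250 ng/bee and 5 of the control, chosen by the dose in the sample titles. The other 5 libraries came from bees given 25 ng/bee. All groups were adult workers from an unpolluted site, held in PET bottles in the laboratory and fed sucrose solution for 72 h, with solvent alone in the control. Each library was a pool of 5 dissected brains, so its level is a mean over 5 animals. The sources used here give no strain and no age in days.

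Thiacloprid is a neonicotinoid insecticide. Neonicotinoids bind nicotinic acetylcholine receptors, the ion channels through which acetylcholine, the main excitatory transmitter of the insect brain, acts on neurons. In the honey bee brain these receptors take part in smell learning in the mushroom bodies, and cytochrome P450 enzymes are known to break down cyano-substituted neonicotinoids such as thiacloprid.

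Replicate 1 at 250 ng/bee stood apart from the other libraries. Its description starts with 20191023, those of the other 14 libraries with 20190809 (no source used here explains the string). It held 29208991 counts, against 6834898 to 11180170 in replicates 2 to 5 and 9226059 to 11500655 in the control. Because only this library has the other prefix, prefix and treatment can be separated only by leaving it out, and counts, list medians and called genes are given with all libraries and without replicate 1. Log2 fold changes of single list members are without replicate 1 unless stated. Neuron markers were present in every library (summed level of Syt1, Syx1A, brp and Para 814 to 1287 CPM, scaled counts per 1000000 counts). Markers of tissues next to the brain were present too. Summed hypopharyngeal and salivary gland genes ranged from 33908 to 259345 CPM in the control and from 37025 to 268853 CPM at 250 ng/bee, with the highest value in replicate 1. Muscle genes ranged from 90.6 to 815 CPM in the control and from 185 to 1053 CPM at 250 ng/bee. Fat body and haemolymph genes ranged from 3530 to 4887 CPM and from 2967 to 4324 CPM, retina genes from 2958 to 6842 CPM and from 2223 to 6583 CPM. In these pools, fewer cells of a type and less RNA per cell cannot be told apart.

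With all libraries, no gene passed an adjusted p under 0.05 at 250 ng/bee against the control. Without replicate 1, 248 of 9617 tested genes (2.58%) passed. Of these, 212 genes (2.20%) rose and 36 (0.374%) fell. The genes that rose had shorter transcripts than the tested genes as a whole, and those that fell had longer ones. All but 1 gene on each side carry only a locus identifier here. The fold changes were small. The log2 fold changes of the genes that rose ran from 0.27 to 1.06 with a median of 0.46, and those of the genes that fell from -0.85 to -0.31 with a median of -0.44. The median over all tested genes was -0.02. In the control and exposed groups without replicate 1, 193 of the 212 and 34 of the 36 genes did not overlap between groups. Over all tested genes, 5.47% lay above and 4.41% below without overlap. The called genes were chosen by these same libraries, so their lack of overlap largely follows from the choice and is no separate support.

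With all libraries edgeR's quasi-likelihood F test called 0 of 9560 genes, with a smallest adjusted p of 0.277 and 1144 genes (12.0%) at an unadjusted p under 0.05, of which 429 (4.49%) were higher and 715 (7.48%) lower. With DESeq2's size factors this split was 533 higher and 544 lower. DESeq2 called 53 genes and limma-voom with sample weights called 390 with all libraries. Without replicate 1, 2051 genes (21.3%) had an unadjusted p under 0.05, 1230 (12.8%) higher and 821 (8.54%) lower. That fit took the spread from all 14 libraries of the shared prefix. With the control and 250 ng/bee libraries alone it called 0 genes, at a smallest adjusted p of 0.0504. It also called 0 genes without control replicate 1 or 3 or without replicate 2, 4 or 5 at 250 ng/bee, and 69, 64, 213 and 463 genes without control replicate 2, 4 or 5 or exposed replicate 3.

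Replicate 1 lay on the other side of the control for most of the genes that rose in replicates 2 to 5. Relative to the control mean, the median log2 deviation of the 212 genes was 0.39, 0.33, 0.50 and 0.51 in replicates 2 to 5 and -0.75 in replicate 1. The control libraries lay between -0.09 and 0.07. Replicate 1 was below every control library for 171 of the 212 genes, above every control library for 25 and within the control range for 16. Over all 9617 tested genes the corresponding counts were 2981, 2253 and 4383. For the 36 genes that fell, the median was -0.50, -0.38, -0.47 and -0.61 in replicates 2 to 5 and -0.00 in replicate 1, with the control between -0.10 and 0.09. Replicate 1 was below every control library for 7 of them, above for 12 and within the range for 17. With all libraries, 59 of the 212 and 25 of the 36 genes had an unadjusted p under 0.05 in the same direction. Over all tested genes the shares were 4.49% higher and 7.48% lower. The called genes were chosen by these same libraries other than replicate 1, so the 2 counts largely follow from the choice and are no separate support. At 25 ng/bee the 5 libraries had medians of 0.10 to 0.31 for the 212 genes and of -0.37 to -0.11 for the 36 genes. The 2 doses share the control libraries and the fit in which the genes were chosen, so the 25 ng/bee values are not independent of that choice.

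**Figure D1:**
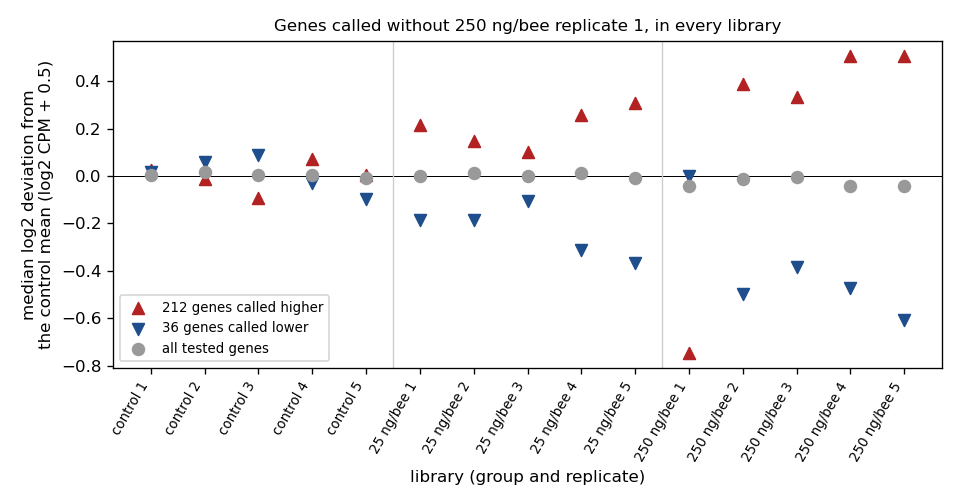
Median log2 deviation from the control mean (vertical axis) of the 212 genes called higher (red triangles), the 36 genes called lower (blue triangles) and all tested genes (grey circles) in each of the 15 libraries (horizontal axis). Replicates 2 to 5 at 250 ng/bee chose the genes and lie at 0.33 to 0.51 and -0.61 to -0.38, while replicate 1, which was not used in the choice, lies at -0.75 and -0.00.

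Of the called genes, 1 on each side has a symbol. Nrk1 rose. It had 29.9, 31.9, 25.5, 29.7 and 25.3 CPM in the control and 34.1, 38.1, 34.0, 44.0 and 40.8 CPM in replicates 1 to 5 at 250 ng/bee. All 5 exposed libraries, replicate 1 included, lay above every control library, as for 0.973% of the tested genes. The log2 fold change was 0.49 ± 0.10 (SE, adjusted p = 0.0301) without replicate 1 and 0.42 ± 0.10 (adjusted p = 0.277) with all libraries. At 25 ng/bee Nrk1 had 0.36 ± 0.10. The gene is a single exon of 591 nt on chromosome 9 (11436038 to 11436628, minus strand, assembly Amel_HAv3.1) and overlaps 1 gene on the other strand. The sources used here do not say whether counting used strand, so reads of overlapping genes may be shared. With a correction for transcript length its fold change was 0.28 (adjusted p = 0.143).

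NFRKB, whose human counterpart is a subunit of the INO80 chromatin remodelling complex, fell. The control libraries had 131, 143, 141, 136 and 119 CPM. The exposed libraries had 118, 101, 107, 96.9 and 87.7 CPM in replicates 1 to 5. The groups did not overlap, as for 1.78% of the tested genes on the lower side, with replicate 1 next to the lowest control library. The log2 fold change was -0.42 ± 0.10 (adjusted p = 0.0435) without replicate 1, -0.39 ± 0.11 (adjusted p = 0.277) with all libraries and -0.12 ± 0.10 at 25 ng/bee. NFRKB lies on chromosome 11 (15399554 to 15406012, minus strand), has 11 exons and 5107 nt in its most abundant transcript, and overlaps 1 gene on each strand. With the length correction its fold change was -0.31 (adjusted p = 0.110).

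The other genes of lowest p carry locus identifiers for which no product name was at hand, so they are described by position and level only. LOC100577341 (chromosome 7, 3512949 to 3513823, 2 exons, 662 nt) had 55.1, 50.9, 47.9, 56.9 and 50.4 CPM in the control and 79.3, 67.1, 85.8 and 86.2 CPM in replicates 2 to 5. Its log2 fold change was 0.63 ± 0.09 (adjusted p = 0.0265). Replicate 1 had 19.6 CPM, below every other library, and with all libraries the value was 0.37 ± 0.26 (adjusted p = 0.604). LOC102654610 (chromosome 16, 4890774 to 4892064, 5 exons, 962 nt) had 48.1 to 54.6 CPM in the control and 75.5, 65.1, 73.2 and 68.9 CPM in replicates 2 to 5. Its log2 fold change was 0.49 ± 0.08 (adjusted p = 0.0265). Replicate 1 again lay below every control library, at 29.4 CPM, and the value with all libraries was 0.28 ± 0.18.

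On the lower side, LOC726736 (chromosome 13, 2106765 to 2126275, 15 exons, 5877 nt) had 31.2, 33.0, 32.5, 27.1 and 30.4 CPM in the control and 18.3, 22.2, 19.8 and 17.8 CPM in replicates 2 to 5. Its log2 fold change was -0.63 ± 0.10 (adjusted p = 0.0265), and no other gene overlaps it. Replicate 1, at 30.8 CPM, lay within the control range. LOC100577927 (chromosome 2, 15827952 to 15831423, 8 exons, 2722 nt) had 39.7, 33.0, 40.5, 38.5 and 39.3 CPM in the control and 24.6, 27.4, 27.7 and 25.5 CPM in replicates 2 to 5, a log2 fold change of -0.52 ± 0.08 (adjusted p = 0.0265). Replicate 1 lay above every control library at 48.5 CPM. With all libraries the 2 genes had -0.49 ± 0.14 and -0.31 ± 0.15.

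The largest fold changes among the called genes belonged to weakly counted loci. LOC107965310 had 3.05 to 8.01 CPM in the control and 10.5 to 13.0 CPM in replicates 2 to 5 (1.06 ± 0.25 on the log2 scale, adjusted p = 0.0413, and 0.83 ± 0.30 with all libraries). LOC102654768 had 6.48 to 10.7 CPM and 14 to 18.5 CPM (1.02 ± 0.18, adjusted p = 0.0265, and 0.78 ± 0.27 with all libraries). LOC726584 had 5.04 to 6.91 CPM and 9.02 to 12.9 CPM (0.94 ± 0.20, adjusted p = 0.0326, and 0.64 ± 0.36 with all libraries), overlaps 2 genes on its own strand and 4 on the other, and had -0.02 ± 0.20 at 25 ng/bee. In replicate 1 these genes stood at 4.03, 5.62 and 1.82 CPM. For each of the 3 the groups did not overlap without replicate 1 and did with it.

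LOC412540, LOC112939925 and LOC413200 fell the most. LOC412540 had 29.1 to 45.3 CPM in the control and 11.9 to 27.4 CPM in replicates 2 to 5 (-0.85 ± 0.20 on the log2 scale, adjusted p = 0.0415, and -0.65 ± 0.23 with all libraries). LOC112939925 had 5.69 to 12.3 CPM and 4.44 to 5.78 CPM (-0.84 ± 0.20, adjusted p = 0.0413), and the groups overlapped at a single control library. LOC413200 had 17.8 to 24.8 CPM and 8.50 to 14.2 CPM (-0.75 ± 0.18, adjusted p = 0.0417, and -0.47 ± 0.24 with all libraries). Replicate 1 had 36.0, 6.15 and 26.4 CPM. For LOC112939925 replicate 1 lay close to the other exposed libraries, and the value with all libraries was -0.80 ± 0.19 (adjusted p = 0.277). With the length correction LOC107965310, LOC726584, LOC412540, LOC112939925 and LOC413200 no longer passed, with adjusted p values of 0.0577 to 0.0689.

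**Figure D2:**
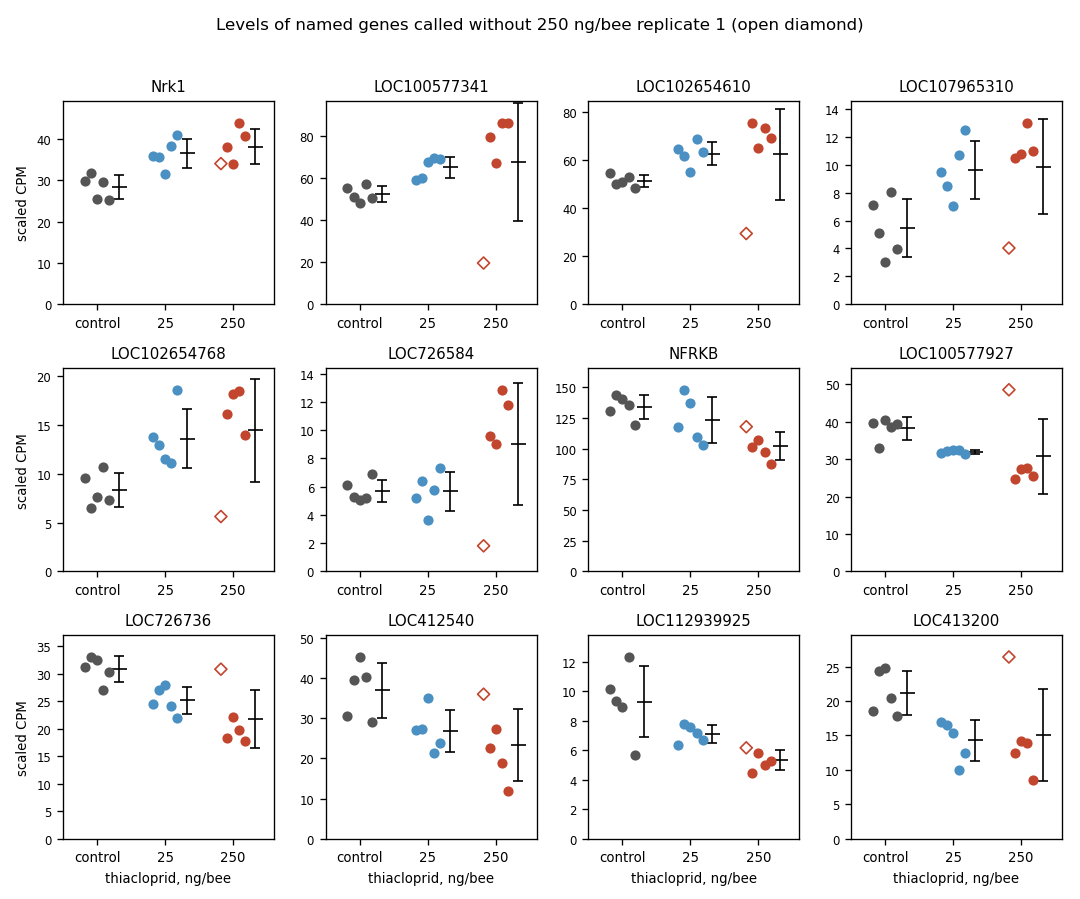
Scaled CPM (vertical axes, from 0) of the 12 named genes that passed without replicate 1, in the control, at 25 and at 250 ng/bee (horizontal axes). Points are libraries, the open diamond is replicate 1 at 250 ng/bee, and bars show mean and SD over all 5 libraries of a group. For Nrk1, NFRKB and LOC112939925 the diamond lies with the other exposed libraries or next to them. For LOC100577341 it lies at 19.6 CPM, below every other library.

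The called genes differed from the tested genes in structure, which the test did not use. Transcripts of the 212 genes that rose had a median length of 1305 nt against 2111 nt over all tested genes, and 76 of them (35.8%) were under 1000 nt against 14.9%. They had a median of 4 exons against 6, and 71.2% had a single annotated transcript against 48.8%. Of the 212, 209 were protein-coding and 3 long non-coding. The 36 genes that fell were all protein-coding, with a median of 3346.5 nt and 7 exons, and 13 were over 4000 nt. Called genes lay on every assembled chromosome, with 30 of the genes that rose on chromosome 1 (1245 tested genes) and 1 on chromosome 13 (335 tested genes).

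A dependence on length ran through all tested genes. For genes under 1000 nt the median log2 fold change without replicate 1 was 0.17 (1436 genes, 76 rose and 1 fell). It was 0.04 from 1000 to under 2000 nt (3113 genes, 99 and 7), -0.07 from 2000 to under 4000 nt (3152 genes, 32 and 15) and -0.11 from 4000 nt (1916 genes, 5 and 13). The slope of the log2 deviation on log2 transcript length was -0.0686 ± 0.0120 at 250 ng/bee and 0 ± 0.0239 in the control, whose mean is 0 by construction (SD, n = 5 each). The exposed libraries lay between -0.0869 and -0.0578 and the control libraries between -0.0281 and 0.0219, with no overlap. The two-sided exact permutation p was 0.00794, the smallest that 5 against 5 libraries allow, and the slope was computed after the dependence had been seen. Without replicate 1 the mean was -0.0713 ± 0.0120 (SD, n = 4, exact permutation p = 0.0159, again the smallest possible). Replicate 1 followed the other exposed libraries in this slope, unlike in the called genes. At 25 ng/bee the slope was -0.0271 ± 0.0394 and spanned the control range. With a length correction in each library, 64 genes passed without replicate 1, 54 higher and 10 lower, and 59 of them were among the 248. RNA integrity values were not used here, and the part of RNA quality or library preparation in the slope was not tested.

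**Figure D3:**
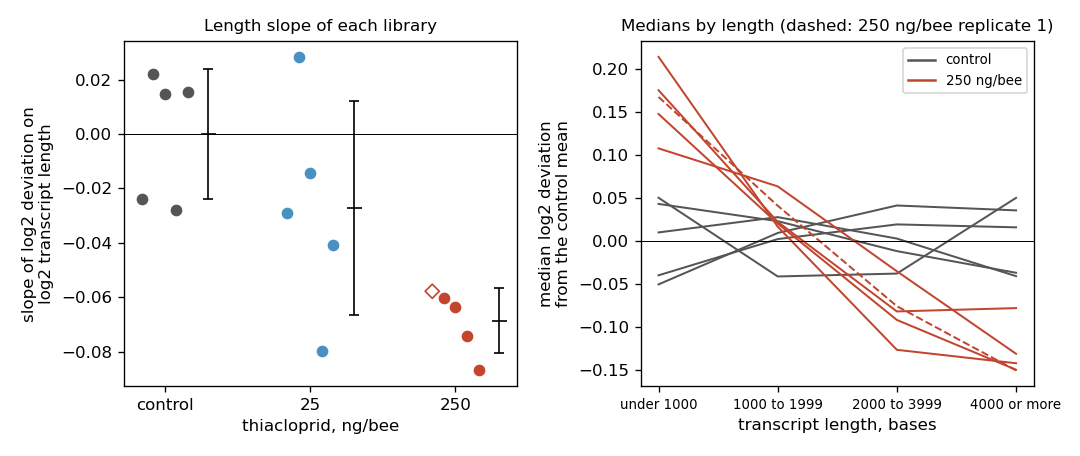
Left, slope of the log2 deviation from the control mean on log2 transcript length for each library (vertical axis) by dose (horizontal axis), with mean and SD over 5 libraries beside the points. Right, median log2 deviation (vertical axis) in 4 classes of transcript length in bases (horizontal axis) for the 5 control and 5 exposed libraries, replicate 1 dashed. All 5 exposed libraries have slopes between -0.0869 and -0.0578, and all run from above 0 in the shortest class to below 0 in the longest.

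Members of 20 lists of gene function and 7 lists of tissue markers were then read gene by gene. In edgeR's main fits, with all libraries and without replicate 1, no member of any list passed, so values are given and no change is called. Some members passed in alternative settings, as given at the end. Over all tested genes without replicate 1, 47.7% had a log2 fold change above 0 and 52.3% below 0 (44.4% and 55.6% with all libraries), and the lists are set against these shares.

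Nicotinic acetylcholine receptor subunits, the binding partners of thiacloprid, had log2 fold changes on both sides of 0. Of 10 subunits, 6 had a log2 fold change above 0 and 4 below, with a median of 0.03 without replicate 1 and -0.04 (3 above, 7 below) with all libraries. In the median over the list, the exposed libraries lay between -0.26 (replicate 1) and -0.03 on the log2 scale. The control libraries lay between -0.11 and 0.21, so the groups overlapped. At an unadjusted p under 0.05, 1 subunit was lower without replicate 1 and 2 with it, and 0 were higher. Over all tested genes, 8.54% and 7.48% were lower at this threshold. The lowest p belonged to the subunit nAChRb1, with 7.28, 12.2, 9.03, 6.07 and 7.92 CPM in the control and 6.51, 4.36, 6.83, 5.69 and 4.05 CPM in replicates 1 to 5. The groups overlapped, and the log2 fold change was -0.67 ± 0.25 (adjusted p = 0.142). The subunit nAChRa2 had 47.8 to 64.7 CPM in the control and 43.7 to 48.2 CPM in all 5 exposed libraries (-0.26 ± 0.14), nAChRa4 had -0.76 ± 0.41 and nAChRa8 -0.18 ± 0.11. On the other side nAChRa9 had 0.28 ± 0.28, nAChRa7 0.14 ± 0.17 and nAChRa1 0.06 ± 0.18, each with overlapping groups. The acetylcholine-splitting enzyme gene AChE-2 had 576 to 748 CPM in the control and 575 to 684 CPM at 250 ng/bee (-0.08 ± 0.14).

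Receptors for amines and amino acid transmitters lay mostly below the control. Of 16 receptors, 15 had a log2 fold change below 0, with a median of -0.27 without replicate 1 and -0.30 (14 of 16) with all libraries, and 3 had an unadjusted p under 0.05 without replicate 1, all lower (4 with it). Over all tested genes the share on the lower side was 8.54%, and 21.3% in either direction (7.48% and 12.0% with all libraries). In the median over the list, the exposed libraries lay between -0.40 and -0.18 on the log2 scale and the control libraries between -0.17 and 0.16. Glurb, a metabotropic glutamate receptor, had 34.1, 35.2, 31.6, 34.8 and 39.7 CPM in the control and 24.2, 33.1, 25.0, 29 and 25.1 CPM in replicates 1 to 5. The exposed libraries other than replicate 2 lay below the control range, and the log2 fold change was -0.29 ± 0.11 (adjusted p = 0.125). Oa1, an octopamine receptor, had 13.8 to 23.3 CPM in the control and 10.5 to 17.6 CPM at 250 ng/bee (-0.56 ± 0.21). Hiscl1, a histamine-gated chloride channel, had 33.1 to 67.6 CPM and 32.6 to 40.8 CPM (-0.48 ± 0.19). The dopamine receptor genes Dop3, DopR2 and Dop1 had -0.72 ± 0.46, -0.39 ± 0.24 and -0.09 ± 0.14, and the serotonin receptor gene 5-ht7 was the one above 0 (0.26 ± 0.32).

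Genes of the synapse pointed the same way. All 8 genes of synaptic vesicles and the active zone had a log2 fold change below 0 in both fits, with medians of -0.24 without replicate 1 and -0.29 with it. Unlike for the receptors, whose groups were separated only narrowly (-0.18 against -0.17), the list medians of the libraries overlapped. They ran from -0.43 to -0.18 in the exposed libraries and from -0.31 to 0.08 in the control, with the lowest control value in replicate 1. Nrx-1, a neurexin of the cell contact at synapses, had 6.45, 13.3, 8.68, 9.11 and 8.94 CPM in the control and 5.58, 5.49, 5.44, 6.86 and 4.32 CPM in replicates 1 to 5. Of the exposed libraries, replicate 4 alone reached the control range, and the log2 fold change was -0.71 ± 0.26 (adjusted p = 0.131). Syx1A, a syntaxin of vesicle fusion, had 462, 430, 468, 434 and 573 CPM in the control and 389, 409, 358, 419 and 373 CPM at 250 ng/bee (-0.26 ± 0.11, adjusted p = 0.182). Its groups did not overlap, as for 1.78% of all tested genes on the lower side, and it was the only such gene of the 8. The vesicle calcium sensor Syt1 had -0.19 ± 0.15 and the active zone protein gene brp -0.03 ± 0.18. The neuroligin genes NLG-3, NLG-4 and NLG-5 had -0.23 ± 0.21, -0.42 ± 0.25 and -0.25 ± 0.27.

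Of 8 voltage-gated channel genes, 6 lay below 0 without replicate 1 (median -0.21) and all 8 with all libraries (median -0.21). The list medians of the libraries overlapped here too. They ran from -0.31 to -0.21 in the exposed libraries and from -0.26 to 0.19 in the control, with the lowest control value in replicate 1. The sodium channel gene Para had 256 to 350 CPM in the control and 228 to 270 CPM at 250 ng/bee (-0.15 ± 0.12). LOC724903, listed as Teh1 in the reference table, had -0.40 ± 0.24, and the calcium channel gene Cac had 0.00 ± 0.17. The summed level of the neuron markers Syt1, Syx1A, brp and Para was 1004 to 1287 CPM in the control and 814 to 973 CPM at 250 ng/bee, with no overlap. These 4 genes are also members of the synaptic or channel lists, so the sum is not a separate result. Of the 4, Syx1A alone had no overlap between groups. The glial glutamate transporter gene Eaat-2 had 245 to 361 CPM and 180 to 391 CPM.

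All 9 listed kinases, cyclases and related enzymes of learning and foraging had a log2 fold change below 0 in both fits (median -0.26 without replicate 1 and -0.25 with it). Replicate 1 itself did not lie below the control. Its median deviation over the list was 0.07 on the log2 scale, within the control range of -0.14 to 0.09. Replicates 2 to 5 lay between -0.42 and -0.15. The soluble guanylate cyclase subunit gene sGC-alpha1 had 42.4, 53.9, 52.6, 44.9 and 57.5 CPM in the control and 43.0, 45.0, 31.8, 43.6 and 34.4 CPM in replicates 1 to 5 (-0.34 ± 0.14, adjusted p = 0.159). NOS, the nitric oxide synthase that makes the activator of this cyclase, had 68.7 to 92.6 CPM and 64.8 to 72.6 CPM (-0.26 ± 0.12). The foraging gene For, a cGMP-dependent protein kinase, had -0.38 ± 0.19, and Camkii -0.08 ± 0.12. Of the clock genes, Cry2, a repressor of the clock, had 24.8 to 47.5 CPM in the control and 21.2 to 36.2 CPM at 250 ng/bee (-0.40 ± 0.17, adjusted p = 0.187), and Per had -0.37 ± 0.22.

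Transcripts in these neuronal lists were long. The median length was 3885 nt for the receptors, 5809.5 nt for the synaptic genes, 6664.5 nt for the channels and 3699 nt for the learning enzymes, against 2111 nt over all tested genes, and genes of 4000 nt or more had a median of -0.11 whatever their function. With the length correction the list medians without replicate 1 were -0.15, -0.14, -0.14 and -0.21. At 25 ng/bee the 4 medians were -0.10, -0.14, -0.07 and -0.15, measured against the same control libraries. Across the alternative settings the 4 medians kept their sign with and without replicate 1. The part of length and of the neuron marker level in these values was not tested.

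**Figure D4:**
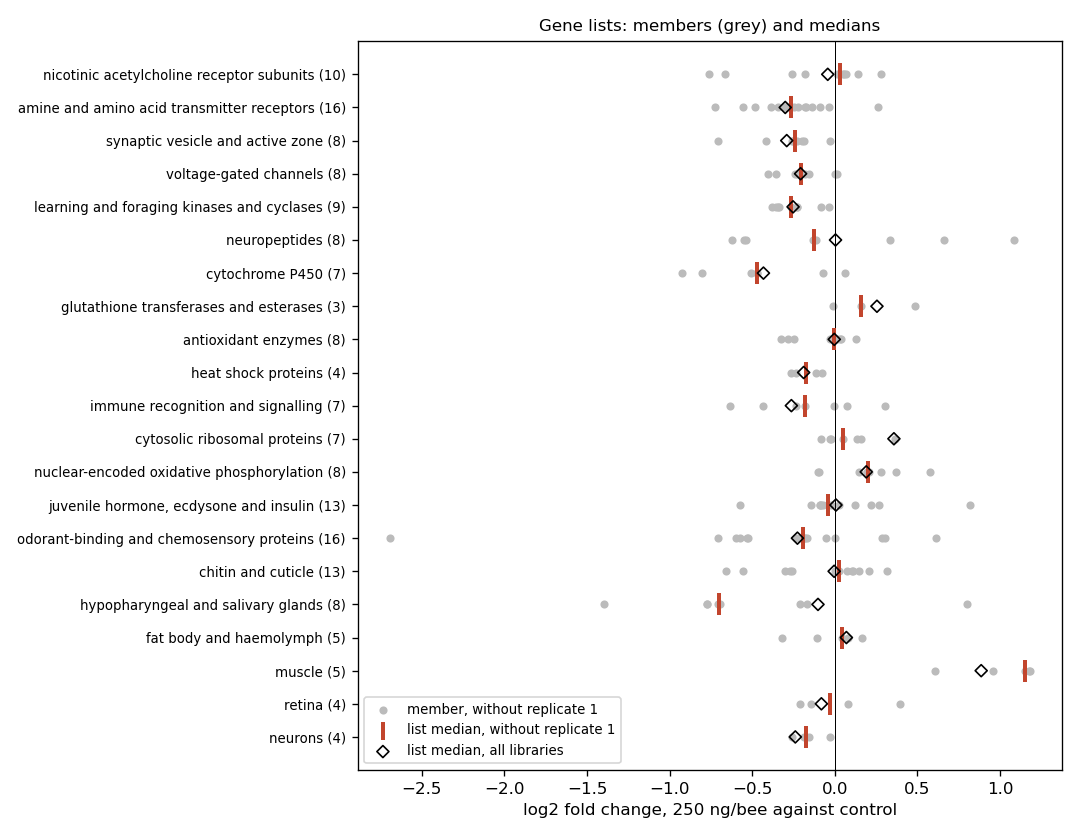
Log2 fold change at 250 ng/bee against the control (horizontal axis) of members of lists with at least 3 tested genes (vertical axis, number tested in brackets). Grey points are members and red bars list medians without replicate 1, open diamonds list medians with all libraries. The receptors, synaptic genes, channels and learning enzymes have medians of -0.27 to -0.21 without replicate 1, and the ribosomal median moves from 0.36 to 0.05 when replicate 1 is left out.

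Neuropeptide genes went both ways. Of 8, 3 were above 0 and 5 below, with a median of -0.12 without replicate 1, and with all libraries 4 were above and 4 below. Crz, which encodes corazonin, had 3.60, 8.23, 7.04, 5.90 and 1.83 CPM in the control and 8.86, 8.80, 12.0, 4.83 and 7.32 CPM at 250 ng/bee (0.66 ± 0.38, adjusted p = 0.328), with overlapping groups. The bursicon gene Burs was near the lower limit of counting, at 1.58 to 1.94 CPM in the control and 0.857 to 1.31 CPM in all exposed libraries (-0.55 ± 0.31, adjusted p = 0.329). Such a lack of overlap on the lower side was found for 1.78% of all tested genes. The tachykinin gene Tk had -0.13 ± 0.20.

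Of 7 cytochrome P450 genes, 6 had a log2 fold change below 0, with a median of -0.47 without replicate 1 and -0.43 with it, and 4 had an unadjusted p under 0.05 without replicate 1 but 2 with it, all lower, beside 8.54% and 7.48% of all tested genes. Replicate 1 itself did not lie below the control, with a median deviation over the list of 0.11 on the log2 scale. Replicates 2 to 5 lay between -0.83 and -0.16 and the control between -0.43 and 0.20, with its lowest value in control replicate 2. The list holds the genes matched by symbol or synonym, and the CYP9Q enzymes were not analysed here. CYP6AQ1 had 81.7, 19.0, 47.4, 43.2 and 37.8 CPM in the control and 18.2, 26.4, 24.2 and 27.1 CPM in replicates 2 to 5. Control replicate 2 lay among the exposed values, and replicate 1 at 55.3 CPM lay among the control values. The log2 fold change was -0.93 ± 0.30 (adjusted p = 0.0934) without replicate 1 and -0.60 ± 0.32 (adjusted p = 0.484) with it. LOC551028, listed as CYP6AS13, had 353, 447, 469, 416 and 353 CPM in the control and 356, 254, 363, 318 and 219 CPM in replicates 1 to 5 (-0.47 ± 0.16, adjusted p = 0.109). LOC724946, listed as CYP6AS11, had -0.80 ± 0.28 and Cyp6as5 -0.51 ± 0.21. With a median transcript length of 1914 nt the P450 list had -0.49 under the length correction. At 25 ng/bee all 7 were below 0, with a median of -0.29.

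Other lists of detoxification and stress had medians smaller in size than the P450 list. The 3 tested glutathione transferase genes had a median of 0.16 without replicate 1 and 0.26 with it. GstS1, a glutathione transferase, had 237 to 322 CPM in the control, 239 to 368 CPM in replicates 2 to 5 and 441 CPM in replicate 1 (0.16 ± 0.13 without it). Of 8 antioxidant genes 4 were above and 4 below 0 in both fits, with a median of -0.01 without replicate 1 and -0.00 with it. The thioredoxin reductase gene Trxr-1 had -0.25 ± 0.13 (adjusted p = 0.275), Cat, the catalase gene, -0.32 ± 0.20 and Sod1, a superoxide dismutase gene, -0.03 ± 0.09. All 4 heat shock genes were below 0 in both fits (median -0.18 without replicate 1 and -0.19 with it), and Hsc70-5 had 293 to 349 CPM in the control and 239 to 356 CPM at 250 ng/bee (-0.24 ± 0.11, adjusted p = 0.235).

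Immune genes varied widely between pools. Apid1, the gene of the antimicrobial peptide apidaecin, had 80.1, 299, 50.3, 3538 and 71.8 CPM in the control and 41.8, 110, 144, 59.2 and 51.6 CPM in replicates 1 to 5. Its log2 fold change of -3.13 ± 1.18 (adjusted p = 0.143) rests on control replicate 4, without which it was -0.44 (adjusted p = 0.755). Def1, a defensin gene, had -0.35 ± 0.34 without replicate 1 and 0.03 ± 0.39 with all libraries. Replicate 1 had 29202 CPM, above the control range of 5389 to 21691 CPM, and replicates 2 to 5 had 6977 to 15161 CPM. Of 7 genes of recognition and signalling, 5 were below 0 without replicate 1 (median -0.18) and 4 with it (median -0.26). cact1, named after cactus, an inhibitor of the Toll pathway in Drosophila, had 12.1, 18.5, 13.1, 16.4 and 14.1 CPM in the control and 15.4, 10.5, 12.5, 7.48 and 7.06 CPM in replicates 1 to 5 (-0.64 ± 0.21, adjusted p = 0.0943, and -0.48 ± 0.22 with all libraries).

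Of the energy and protein synthesis genes, the oxidative phosphorylation and ribosomal lists had short transcripts and, before any length correction, medians above 0. Of 8 nuclear-encoded genes of oxidative phosphorylation 6 were above 0, with a median of 0.20 without replicate 1 and 0.19 with it, and 3 had an unadjusted p under 0.05 in each fit, all higher, beside 12.8% and 4.49% of all tested genes. Uqcr11, a subunit of complex III, had 405, 293, 309, 356 and 515 CPM in the control and 385, 493, 408, 726 and 580 CPM in replicates 1 to 5 (0.58 ± 0.20, adjusted p = 0.108). Ndufs5 of complex I had 158 to 208 CPM in the control and 185 to 267 CPM at 250 ng/bee (0.37 ± 0.14), and Cox6c of complex IV had 0.28 ± 0.13. The 2 genes below 0 were ATP5G2 (-0.10 ± 0.11) and Ndufs1 (-0.10 ± 0.10). The median length was 881.5 nt, genes under 1000 nt had a median of 0.17 whatever their function, and with the length correction the list's median was 0.05.

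The cytosolic ribosomal genes show how far replicate 1 alone moved a group. In replicate 1 all 7 lay above every control library, with a median deviation of 1.18 on the log2 scale, against -0.21 to 0.33 in replicates 2 to 5 and -0.12 to 0.21 in the control. Rps14 had 513, 521, 596, 613 and 610 CPM in the control, 589, 500, 459 and 651 CPM in replicates 2 to 5 and 1457 CPM in replicate 1. With all libraries all 7 were above 0 (median 0.36), and without replicate 1, 4 were above and 3 below (median 0.05). The median transcript length was 562 nt, and with the length correction the median without replicate 1 was -0.16. Rpl41 had 198 to 254 CPM in the control, 221 to 341 CPM in replicates 2 to 5 and 508 CPM in replicate 1 (0.37 ± 0.15 without it, adjusted p = 0.175). Of the 2 glycolysis genes, Gpdh had -0.14 ± 0.10 and Tpi 0.13 ± 0.10.

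Among 13 genes of juvenile hormone, ecdysone and insulin signalling, 5 were above and 8 below 0 without replicate 1 (median -0.04), and 7 above and 6 below with it (median 0.01). JHBP-1, whose name stands for juvenile hormone-binding protein, had 23.7, 7.36, 22.9, 22.9 and 7.82 CPM in the control and 55.2, 32.8, 28.3, 39.2 and 17.4 CPM in replicates 1 to 5. All exposed libraries but replicate 5 lay above the control range, and the log2 fold change was 0.82 ± 0.32 (adjusted p = 0.156) without replicate 1 and 1.03 ± 0.33 (adjusted p = 0.299) with it. At 25 ng/bee JHBP-1 had -0.03 ± 0.31. The transcription factor genes Kr-h1 and Mblk-1 had -0.08 ± 0.31 and 0.12 ± 0.16.

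**Figure D5:**
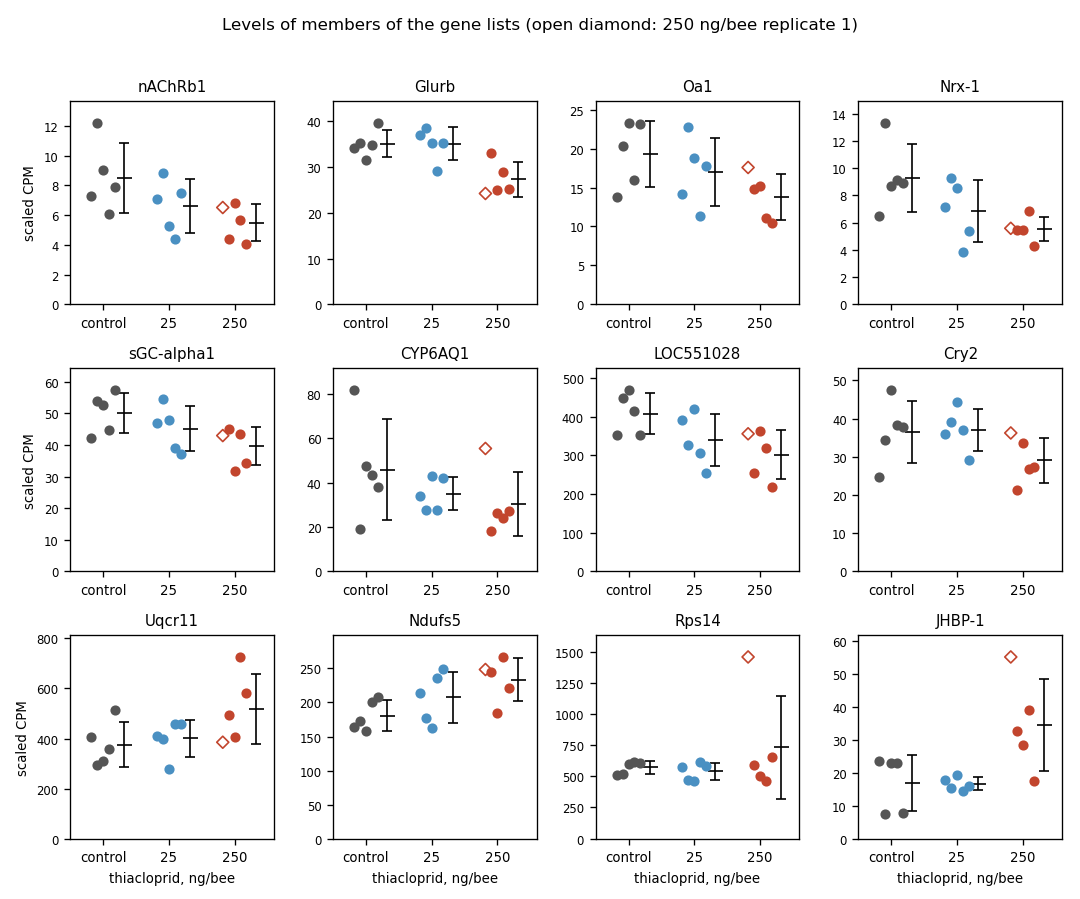
Scaled CPM (vertical axes, from 0) of 12 list members in the control, at 25 and at 250 ng/bee (horizontal axes). Points are libraries, the open diamond is replicate 1 at 250 ng/bee, and bars show mean and SD over 5 libraries. None of these genes passed in edgeR's main fits, with all libraries or without replicate 1. Rps14 shows replicate 1 at 1457 CPM above all other libraries, and CYP6AQ1 shows it at 55.3 CPM among the control values.

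Of 24 listed odorant-binding and chemosensory genes, 16 passed the low-count filter, and 12 of these were below 0 without replicate 1 (median -0.19) and 11 with it (median -0.23). The median transcript length was 596 nt, and with the length correction the median without replicate 1 was -0.39. CSP1, a chemosensory protein gene with transcripts of 351 nt, had 1915, 4090, 3674.5, 3594 and 1813 CPM in the control and 2556, 1813, 1655, 1960 and 1828 CPM in replicates 1 to 5. Control replicates 1 and 5 lay among the exposed values (-0.71 ± 0.26, adjusted p = 0.126). Obp15 was at the limit of counting, with 0 to 1.80 CPM in the control and 0 CPM in 3 of the 5 exposed libraries. Of 23 cuticle and chitin genes 13 were tested, 7 above and 6 below 0 without replicate 1 (median 0.03) and 5 above and 8 below with it (median -0.00), and CPR4 had 0.21 ± 0.16 (adjusted p = 0.474).

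All 5 muscle genes had a log2 fold change above 0 (median 1.15 without replicate 1 and 0.89 with it), and none had an unadjusted p under 0.05. TpnCIIIa, a troponin C gene, had 9.08, 14.8, 18.1, 33.5 and 207 CPM in the control and 24.3, 102, 204, 120 and 82.4 CPM in replicates 1 to 5. Control replicate 5 was as high as the highest exposed library. The list median ran from 0.53 without replicate 4 at 250 ng/bee to 2.77 without control replicate 5 when a further library was left out, and from 0.27 to 2.49 without the same libraries when replicate 1 was kept. Of 8 gland genes 7 were below 0 without replicate 1 (median -0.70), and 5 with it (median -0.10). The part of these tissues in the called genes was not tested.

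Genes with a symbol that lay outside every list and had an unadjusted p under 0.01 without replicate 1 were picked after their values were seen. The 10 reported here did not pass in edgeR's main fits. Fstl5, a follistatin-like gene, had 65.1 to 85.6 CPM in the control and 49.6 to 62.9 CPM in all exposed libraries (-0.43 ± 0.13, adjusted p = 0.0816). Its groups did not overlap, as for 1.78% of all tested genes on the lower side. PHRF1 had 0.31 ± 0.08 (adjusted p = 0.0546) and, with transcripts of 10770 nt, 0.38 under the length correction (adjusted p = 0.0462).

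Of the rest of the 10, Brd7, a bromodomain gene, had -0.32 ± 0.09. Nipped-B, the loader of cohesin in Drosophila, had -0.60 ± 0.18, and WRNexo, an exonuclease gene, had 0.62 ± 0.18. In replicate 1 Brd7 had 96.1 CPM, within the control range of 86.6 to 107 CPM, against 63.2 to 81.3 CPM in replicates 2 to 5. WRNexo had 13.6 to 21.5 CPM in the control, 23.9 to 31.6 CPM in replicates 2 to 5 and 9.08 CPM in replicate 1. Vha16, a membrane subunit gene of the vacuolar proton pump, had 146 to 208 CPM in the control, 96.6 to 148 CPM in replicates 2 to 5 and 189 CPM in replicate 1 (-0.57 ± 0.17). A4 varied most, with 30.8 to 82.3 CPM in the control and 49.2 to 357 CPM at 250 ng/bee (1.73 ± 0.48). Pcl, Nedd9 and Ets97D-like had 0.56 ± 0.18, -0.42 ± 0.14 and -0.32 ± 0.11.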

How the data were processed

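Brain mRNA was sequenced by the authors from a stranded poly-A kit, per the labels' protocols. StringTie 2.0.2, HISAT2 2.1.0, DESeq2 1.22.2, Trimmomatic 0.39 and SAMtools 1.7 are listed in the submitters' processing notes without roles or settings. Estimated counts of 12112 genes come from the deposited gene table and equal coverage times length divided by 75 from the deposited transcript tables within 1 count for 100% of genes, and they were rounded to whole numbers. Coverage (signal) and FPKM per transcript come from those tables, per the file headers. Coverage served for this check and FPKM for transcript lengths. The length and exon number of a gene are those of its transcript of highest mean FPKM over the 15 libraries. Start and end of 12069 genes (99.6%) were the same in assembly Amel_HAv3.1.

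Counts were scaled by TMM, filtered with filterByExpr and tested with edgeR 4.0.16 (quasi-likelihood, two-sided, group as the only term, R 4.3.3) with all 15 libraries and without 250 ng/bee replicate 1, at a Benjamini-Hochberg adjusted p under 0.05. SE is the log2 fold change divided by the square root of F. DESeq2 1.42.0 and limma 3.58.1 were alternatives. Deviations are on log2(CPM + 0.5), and the length correction is a loess of span 0.5 per library. Depth limits precision most for genes of few CPM. Named genes were those called with a symbol, the 2 of lowest p and the 3 of largest fold change (at least 1 CPM) in each direction, and each list's member of lowest p. Further examples were chosen after their values were seen. The comparison and the lists were chosen with earlier results of these data known. No pair of libraries was identical, and same-numbered libraries were not treated as pairs. Sequences are not printed here. Of the genes chosen after their values were seen, 1 is not reported here.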

Additional observations from a re-analysis of the deposited data

Results flagged for a closer look

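Replicate 1 at 250 ng/bee stood apart from the other libraries of its group in depth, with a total of 29208991 counts, and in the median log2 deviation of the 212 genes called higher, at -0.75 against 0.33 to 0.51 in replicates 2 to 5. Of 84 sets of 5 libraries read gene by gene, 8 had 1 library far from the others, where chance gives about 1 in 20 for genes picked without regard to their values. Many of these genes were chosen by low p without replicate 1, so that rate does not apply to the 250 ng/bee sets. In 6 of the 8 that library was replicate 1 at 250 ng/bee. It lay below the rest for LOC100577341 (19.6 CPM), LOC102654610 (29.4 CPM) and LOC107965310 (4.03 CPM). It lay above the rest for LOC100577927 (48.5 CPM), CYP6AQ1 (55.3 CPM) and Nipped-B (17.9 CPM). The others were LOC100577927 in control replicate 2 (33.0 CPM, below the rest) and Apid1 in control replicate 4 (3538 CPM, above the rest).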

How the results depend on the processing

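With all libraries, 0 genes passed under edgeR, also without a low-count filter, with DESeq2's size factors, in the fit of control and 250 ng/bee libraries alone, with the replicate block and with the length correction. DESeq2 called 53 genes and limma-voom with sample weights 390, and leaving out 1 library gave 0 to 248 genes (248 without 250 ng/bee replicate 1, 2 without replicate 3). Without replicate 1, the 248 genes became 798 in DESeq2, 892 in limma-voom, 0 with control and 250 ng/bee alone, 64 with the length correction and 173 without a filter, and leaving out a further library gave 0 to 463. With the replicate number as a block, 665 genes passed without replicate 1. Same-numbered control and exposed libraries had correlations of deviations from -0.054 to 0.085. The numbers were treated as names only, and whether they stand for a shared batch was not tested. The 12 named genes that passed kept their direction in all 16 alternatives but passed in only 6 to 10 of them (6 for NFRKB, 8 for Nrk1), with an adjusted p of up to 0.152. Of the named list members, cact1 passed in 4 of the 16, CYP6AQ1 and Uqcr11 in 3 each and CSP1 in 1. Of the 10 genes picked after their values were seen, 8 passed in 2 to 5. GstS1 changed sign under the length correction (-0.0226). Median log2 fold changes changed sign in at least 1 alternative for nicotinic subunits, neuropeptides, glutathione transferases, antioxidant enzymes, ribosomal, hormone, cuticle, gland, fat body and retina genes, and kept it in all for the other lists with at least 3 tested genes. The causes were not tested. Genes of few CPM, such as Obp15 and Burs, are limited by depth.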
